A study of Mus musculus with 6 samples.

Results

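The genes described here make, regulate, move and export cholesterol or make fatty acids, and were read in NIH3T3, an immortal line of fibroblasts that was derived from mouse embryos. The 40 genes were chosen by symbol, each matched 1 Ensembl gene ID, and they came from 24938 genes listed in every library. RNA was sequenced from 3 libraries of cells that overexpress F-CircAE and from 3 libraries of wild type cells. F-CircAE is a fusion circular RNA, a closed loop of RNA, that is related to AML1-ETO, the fusion that joins RUNX1 to RUNX1T1 in some human acute myeloid leukaemias, and its own level was not analysed here. The labels do not say how F-CircAE was introduced, whether the overexpressing cells were 1 clone, whether the wild type cells carried an empty vector, or whether replicate libraries started from separate cultures. The p-values therefore cover only how far these 6 libraries scatter, and that scatter may be technical. Values are the deposited FPKM, fragments scaled to gene length and library size, so levels can be set side by side between genes.

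The libraries held 16968281 to 21842328 recovered reads and did not all differ to the same degree. Wild type replicates 1 and 2 had a chi-square per gene of 1.46 between them, where counting error alone gives about 1, against 5.15 to 25.09 in the other 14 pairs. They differed beyond counting error and were entered as separate libraries, but if they share a culture or an RNA, the errors at n = 3 are too small. Of 10 fibroblast markers, 9 exceeded 1 FPKM in all 6 libraries, and Thy1 stood at 0.873 in wild type replicate 3. Among 8 listed adipocyte markers only Lipe exceeded 1 FPKM in any library, Plin1 reached at most 0.0526 FPKM and Adipoq at most 0.0378 FPKM. The summed adipocyte markers ran from 1.57 to 1.89 FPKM in F-CircAE libraries and from 1.64 to 1.97 FPKM in wild type libraries. Of the epithelial, haematopoietic and endothelial markers in the files, Cdh1 and Cd68 alone exceeded 1 FPKM. In bulk RNA, fewer cells of a type and less RNA per cell cannot be told apart.

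Cholesterol is built from acetyl-CoA through mevalonate, isoprenoid units and squalene to lanosterol, which is then trimmed and reduced. Transcription of these enzymes is driven by SREBP transcription factors, which SCAP escorts out of the endoplasmic reticulum when membrane sterol is low and which INSIG proteins hold back when it is high. LXR nuclear receptors act on the other side, sensing oxysterols and inducing the cholesterol exporters and the ubiquitin ligase Mylip. Fatty acid synthesis from citrate, elongation and desaturation are under SREBP and LXR control as well.

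SREBP proteins bind sterol regulatory elements, so the 250 bases before each RefSeq gene start (GRCm38.p6) were searched on both strands, and promoters of 31 of the 40 genes were found in the table. The element written TCACNCCAC occurred only in Hmgcs1 among these, against 1.18% of 8672 tested genes with a promoter there. A shorter form, TCACNNCA, which was added after that count was seen and which every match to the longer one also holds, occurred in 7 of 16 genes of the mevalonate and sterol arms (43.8%), in 2 of 5 SREBP regulators, in none of 4 LXR and efflux genes, in none of 5 fatty acid genes and in 11.3% of the tested genes. An intermediate form, TCACNCCA, occurred in 2 of those 16 genes (12.5%) and in 3.89% of tested genes. CCAAT, the core of the NF-Y element that often stands beside a sterol element, occurred in 15 of those 16 genes and in 41.5% of tested genes. It occurred in 4 of 5 SREBP regulators, 1 of 5 fatty acid genes and 1 of 4 LXR and efflux genes. The letters GGGCGG, also counted, occurred in 14 of those 16 genes (87.5%) and in 65.7% of tested genes. They occurred in 5 of 5 SREBP regulators, 2 of 5 fatty acid genes and 2 of 4 LXR and efflux genes. A match is a description of letters and not a shown site. The windows of the 4 most highly expressed genes with TCACNNCA on the gene's own strand, outside the annotated span of that gene, are shown. Overlap with other annotated genes was not checked. This choice was made after the matches were seen, to show the shorter form before genes at the head, middle and end of the pathway and before Srebf2. Of these windows only that of Hmgcs1 holds TCACNCCAC. Each is printed 5′ to 3′ on the gene's strand with the match in capitals. They lie at chr5:4104753-4104810 on the minus strand, chr15:82147082-82147139 on the plus strand, chr13:119690189-119690246 on the plus strand and chr9:42264320-42264377 on the minus strand, in the order given.
Cyp51: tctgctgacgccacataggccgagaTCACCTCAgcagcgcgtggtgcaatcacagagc
Srebf2: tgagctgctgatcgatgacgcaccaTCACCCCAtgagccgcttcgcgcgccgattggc
Hmgcs1: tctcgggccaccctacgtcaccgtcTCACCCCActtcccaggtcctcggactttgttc
Sc5d: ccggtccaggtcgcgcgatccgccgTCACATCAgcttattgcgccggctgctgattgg

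No gene of the set passed the test between F-CircAE overexpression and wild type. Of the 40 genes, 38 exceeded 1 FPKM in at least 3 libraries and were tested, and none had an adjusted p below 0.05 (limma on log2(FPKM + 1), Benjamini-Hochberg over 12222 tested genes). Over all tested genes 0% passed at that threshold. At an unadjusted p below 0.05 there were none of the 38, against 5.17% of all tested genes (2.86% higher and 2.31% lower with F-CircAE), and limma-voom on the recovered reads likewise gave 0 adjusted and 0 unadjusted calls among the 38. Array weights count a library less the further it lies from the rest of its group. With them limma called 3 of the 38, namely Acly, Insig2 and Nr1h2, against 18.3% of all tested genes. The F-CircAE and wild type values overlapped in every one of the 38, whereas the groups did not overlap in 11.5% of all tested genes (6.81% higher and 4.69% lower with F-CircAE). What varied was the level within each group. F-CircAE replicate 2 was the highest of the 6 libraries for 23 of the 38 genes, against 13.3% of all tested genes, and wild type replicate 3 was the lowest for 27, against 19.2%.

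**Figure D1:**
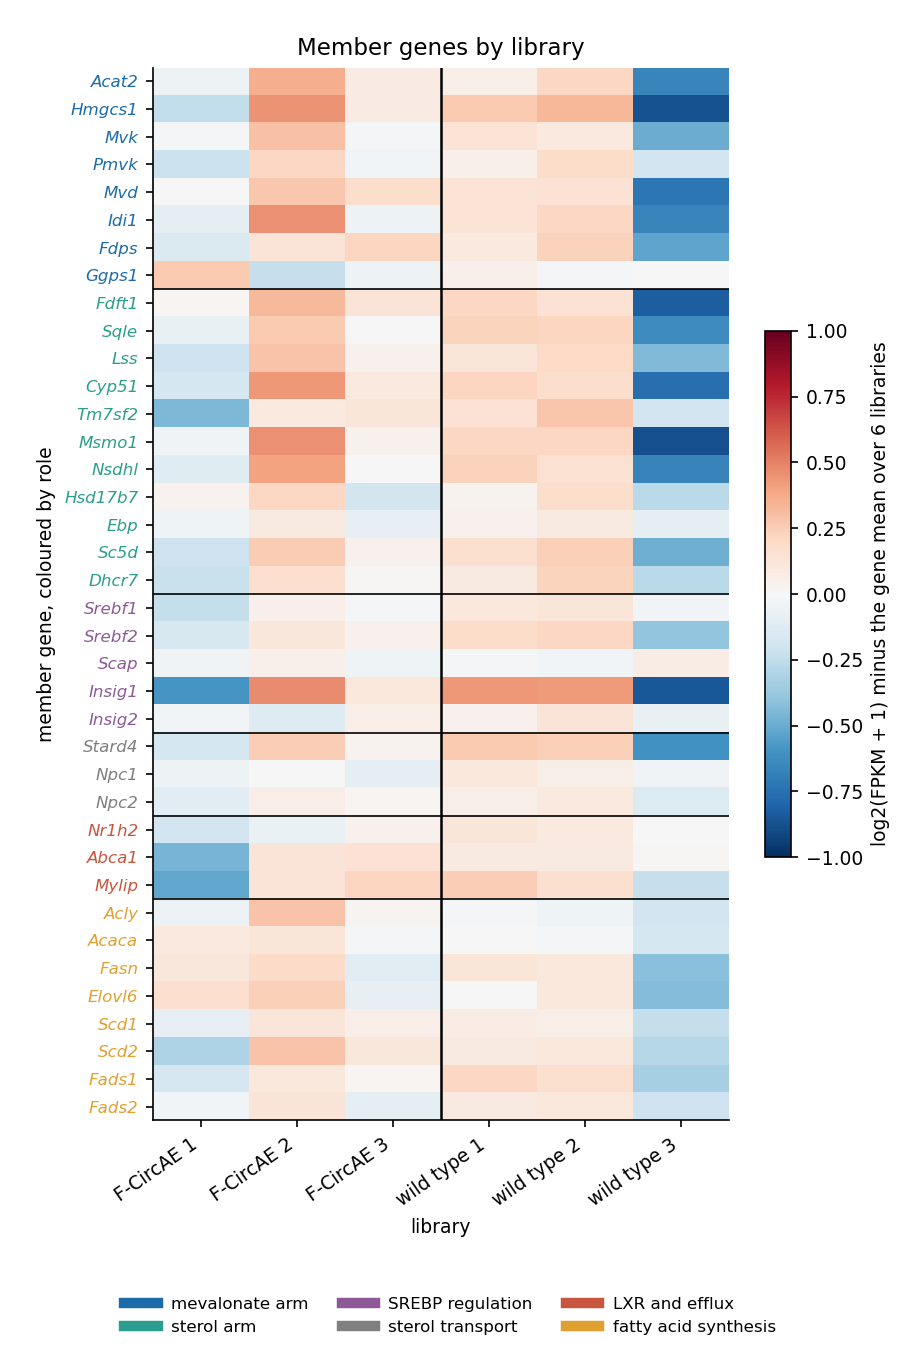
Level of the 38 tested genes in each library, as log2(FPKM + 1) minus the gene's mean over the 6 libraries, on a colour scale from -1 to 1. Rows are ordered by role, and the vertical line parts the 3 F-CircAE libraries from the 3 wild type libraries. F-CircAE replicate 2 is the highest in 15 of the 19 rows of the mevalonate and sterol arms, and wild type replicate 3 is the lowest in 16 of them.

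The mevalonate arm was lowest in wild type replicate 3 for 6 of its 8 genes. Hmgcs1, the cytosolic HMG-CoA synthase, had 38.0, 62.3 and 48.0 FPKM in F-CircAE replicates 1, 2 and 3, against 54.4, 57.3 and 24.4 FPKM in wild type replicates 1, 2 and 3. Its value in wild type replicate 3 was 0.437 times the mean of the other wild type libraries, below all 3 F-CircAE values, while wild type replicates 1 and 2 lay above 2 of the 3 F-CircAE values. Acat2, which joins acetyl-CoA units at the head of the pathway, had 26.0, 34.9 and 28.6 FPKM in F-CircAE libraries and 28.2, 31.2 and 16.6 FPKM in wild type libraries. A near copy of Acat2, Acat3, is annotated and can share its reads.

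Mvk, mevalonate kinase, had 16.0, 20.2 and 16.1 FPKM in F-CircAE libraries and 17.98, 17.5 and 11.2 FPKM in wild type libraries. Pmvk, phosphomevalonate kinase, had 12.5, 17.1 and 14.3 FPKM with F-CircAE and 15.2, 16.8 and 12.7 FPKM in wild type, so its lowest library was F-CircAE replicate 1. Mvd, which decarboxylates diphosphomevalonate to the first isoprenoid unit (chromosome 8, 122433601 to 122443422, mm10), had 18.1, 22.0 and 20.6 FPKM in F-CircAE libraries and 20.01, 20.1 and 10.6 FPKM in wild type libraries. Wild type replicates 1 and 2 thus lay within the F-CircAE range and replicate 3 well under it. Mvd had both the smallest p and the largest estimate of the arm, a log2 fold change of 0.30 (standard error 0.23, 95% interval -0.26 to 0.85, limma adjusted p = 0.850), and without wild type replicate 3 the estimate was 0.007 (limma adjusted p = 0.975). Over the 8 genes of the arm 6 estimates were above 0, and the median log2 fold change was 0.181, or -0.049 without wild type replicate 3.

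Idi1, which interconverts the isoprenoid units, had 7.18, 10.9 and 7.36 FPKM with F-CircAE and 8.55, 9.04 and 4.48 FPKM in wild type. Its transcripts match 4 annotated pseudogenes, the longest match being 684 bases at 100% identity, and can share reads with them. Fdps, farnesyl diphosphate synthase, had 0.786, 1.16 and 1.29 FPKM with F-CircAE and 1.11, 1.31 and 0.372 FPKM in wild type. The Fdps values rest on 56, 105 and 101 reads in F-CircAE libraries and 96, 118 and 30 reads in wild type libraries, and 6 annotated pseudogenes match its transcripts over 300 bases or more at 90% identity or higher, so its level is uncertain. Like Pmvk, Ggps1, which makes the geranylgeranyl unit for protein prenylation rather than sterol, was not lowest in wild type replicate 3. It had 9.13, 6.204 and 7.17 FPKM in F-CircAE libraries and 7.74, 7.34 and 7.41 FPKM in wild type libraries. Wild type replicate 3 stood at 0.983 times the mean of the other wild type libraries. An annotated pseudogene, Gm5630, matches Ggps1 over 903 bases and can share its reads.

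The sterol arm repeated this order in 10 of 11 genes, with wild type replicate 3 the lowest. Fdft1, squalene synthase, the step that commits carbon to sterols (chromosome 14, 63145150 to 63179578), had 20.9, 26.1 and 22.7 FPKM in F-CircAE libraries and 23.9, 22.9 and 11.2 FPKM in wild type libraries. It had the smallest p and the largest estimate of the arm, a log2 fold change of 0.32 (standard error 0.27, 95% interval -0.33 to 0.96, limma adjusted p = 0.850). Without wild type replicate 3 the estimate was -0.016 (limma adjusted p = 0.950). Exons of Fdft1 overlap those of Ctsb on the other strand, and an annotated pseudogene, Gm6781, matches its transcripts over 1249 bases.

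Sqle, squalene epoxidase, had 31.3, 39.7 and 33.0 FPKM in F-CircAE libraries and 38.6, 38.3 and 20.99 FPKM in wild type libraries. Lss, which folds the epoxide to lanosterol, had 4.59, 6.86 and 5.67 FPKM with F-CircAE and 6.04, 6.43 and 3.76 FPKM in wild type. Cyp51, the lanosterol demethylase, had the highest level of the 19 genes, with 95.1, 145 and 115 FPKM in F-CircAE libraries and 125, 122 and 63.2 FPKM in wild type libraries. For all 3 genes wild type replicate 3 lay below every other library and F-CircAE replicate 1 was the next lowest.

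Tm7sf2, a sterol reductase, was low throughout, with 1.24, 2.25 and 2.31 FPKM in F-CircAE libraries and 2.37, 2.701 and 1.66 FPKM in wild type libraries. It was the only gene of the arm whose lowest library was F-CircAE replicate 1. Exons of Tm7sf2 share 532 bases with those of Vps51 on the same strand, so its level is uncertain. Msmo1, an oxidase of the sterol ring demethylation that follows the Cyp51 step, had 14.7, 20.98 and 15.5 FPKM with F-CircAE and 17.6, 17.5 and 7.74 FPKM in wild type. Nsdhl, the dehydrogenase of the same demethylation, had 8.03, 12.0 and 8.82 FPKM with F-CircAE and 10.5, 9.93 and 5.16 FPKM in wild type. In wild type replicate 3, Msmo1 stood at 0.441 times and Nsdhl at 0.504 times the mean of wild type replicates 1 and 2.

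Hsd17b7, the ketoreductase of the demethylation, had 7.51, 8.605 and 6.30 FPKM in F-CircAE libraries and 7.50, 8.40 and 5.87 FPKM in wild type libraries. Ebp, the sterol isomerase, varied least, with 9.64, 10.7 and 9.39 FPKM with F-CircAE and 10.3, 10.6 and 9.25 FPKM in wild type. Sc5d, the sterol desaturase, had 23.5, 32.8 and 28.1 FPKM with F-CircAE and 30.5, 32.3 and 19.2 FPKM in wild type. Dhcr7, the reductase that yields cholesterol, had 4.35, 6.03 and 5.32 FPKM with F-CircAE and 5.65, 6.32 and 4.19 FPKM in wild type. All 4 had their lowest value in wild type replicate 3, which was 0.882 times the mean of the other wild type libraries for Ebp and 0.611 times for Sc5d. Over the 11 genes of the arm 8 estimates were above 0, and the median log2 fold change was 0.078, or -0.100 without wild type replicate 3 and -0.043 without F-CircAE replicate 2.

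Summed over the 19 genes of both arms, the level was 349, 486 and 396 FPKM in F-CircAE replicates 1, 2 and 3 (410.2 ± 69.8, SD, n = 3) and 431, 438 and 240.03 FPKM in wild type replicates 1, 2 and 3 (369.7 ± 112, SD, n = 3). The wild type range thus enclosed 2 of the 3 F-CircAE sums, and the SD was larger in wild type than with F-CircAE. F-CircAE replicate 1 was under 0.75 times the mean of F-CircAE replicates 2 and 3 in 5 of the 19 genes, against 8% of all tested genes. Wild type replicate 3 was under 0.75 times the mean of wild type replicates 1 and 2 in 16 of the 19, against 8.13% of all tested genes. The exceptions in wild type were Pmvk, Ggps1 and Ebp. Over the 19 genes the median of this wild type ratio was 0.561, whereas over all tested genes it was 1.003. The ratio of wild type replicate 2 to replicate 1 ran only from 0.942 to 1.18 over the same 19 genes. The median ratio of the highest to the lowest library was 1.40 with F-CircAE and 1.84 in wild type for the 19 genes, and 1.17 and 1.15 for all tested genes.

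Fibroblast markers differed between the same libraries. Pdgfrb, a growth factor receptor gene, had 6.91, 11.9 and 11.5 FPKM in F-CircAE replicates 1, 2 and 3 and 17.8, 17.1 and 7.60 FPKM in wild type replicates 1, 2 and 3. The summed 10 fibroblast markers ran from 1785 to 2199 FPKM with F-CircAE and from 1989 to 2514 FPKM in wild type, with the lowest wild type sum in replicate 3. Vim, a filament protein gene, was highest of its group in wild type replicate 3, with 567, 601 and 665 FPKM in F-CircAE libraries and 563, 560.3 and 606 FPKM in wild type libraries. S100a4 was also highest there, with 2.34, 2.08 and 3.22 FPKM in wild type libraries. All other listed markers were lowest of their group there, Twist1 only slightly, with 57.9, 53.8 and 51.6 FPKM in wild type libraries. The part of these genes in the levels of the sterol genes was not tested.

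**Figure D2:**
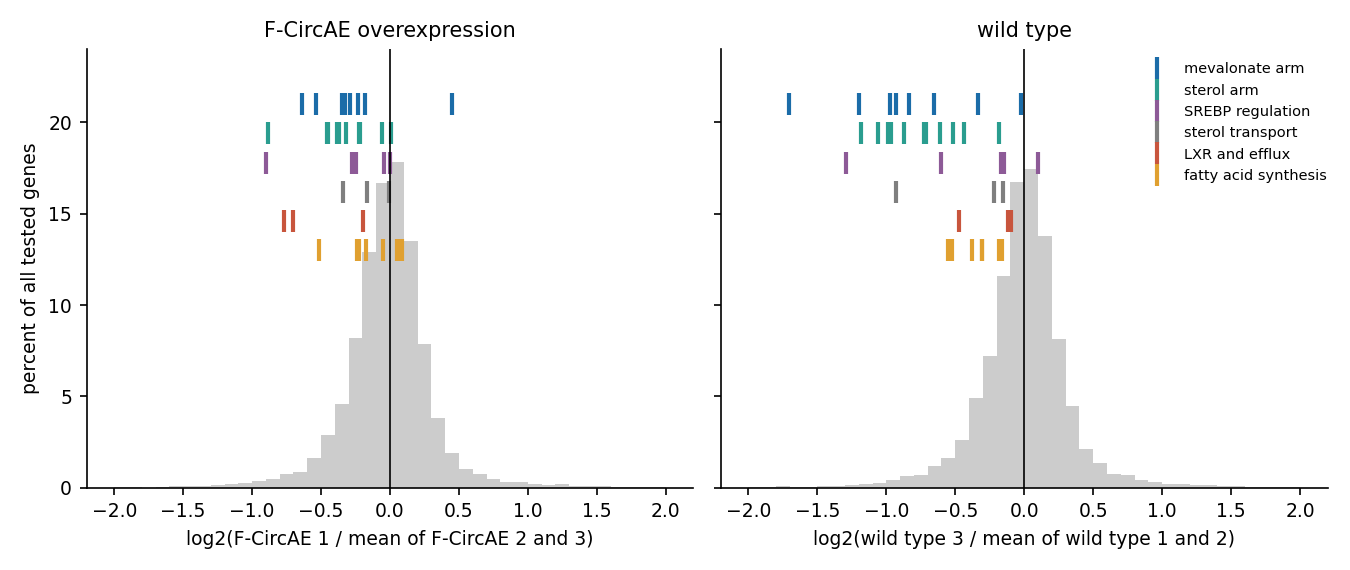
Ratio of F-CircAE replicate 1 to the mean of F-CircAE replicates 2 and 3 (left) and of wild type replicate 3 to the mean of wild type replicates 1 and 2 (right), on a log2 axis. Grey bars give the percent of all tested genes per bin (log2 ratios beyond 2 either way are not drawn), and each coloured tick is 1 gene of the set, with a row of ticks per role at arbitrary height. Most ticks of the mevalonate and sterol arms lie left of the grey bulk in the wild type panel, at a median ratio of 0.561.

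Fold changes of the 19 genes had a median of 0.131 on the log2 scale, with 14 of 19 above 0, beside a median of 0.008 and 53.2% above 0 over all tested genes. That direction rested on wild type replicate 3. Without it, 1 of the 19 estimates was above 0 and the median was -0.086. Without F-CircAE replicate 2, which had the highest summed level, 12 of 19 were above 0 and the median was 0.035. The median standard error was 0.22 for the 19 genes and 0.089 for all tested genes.

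**Figure D3:**
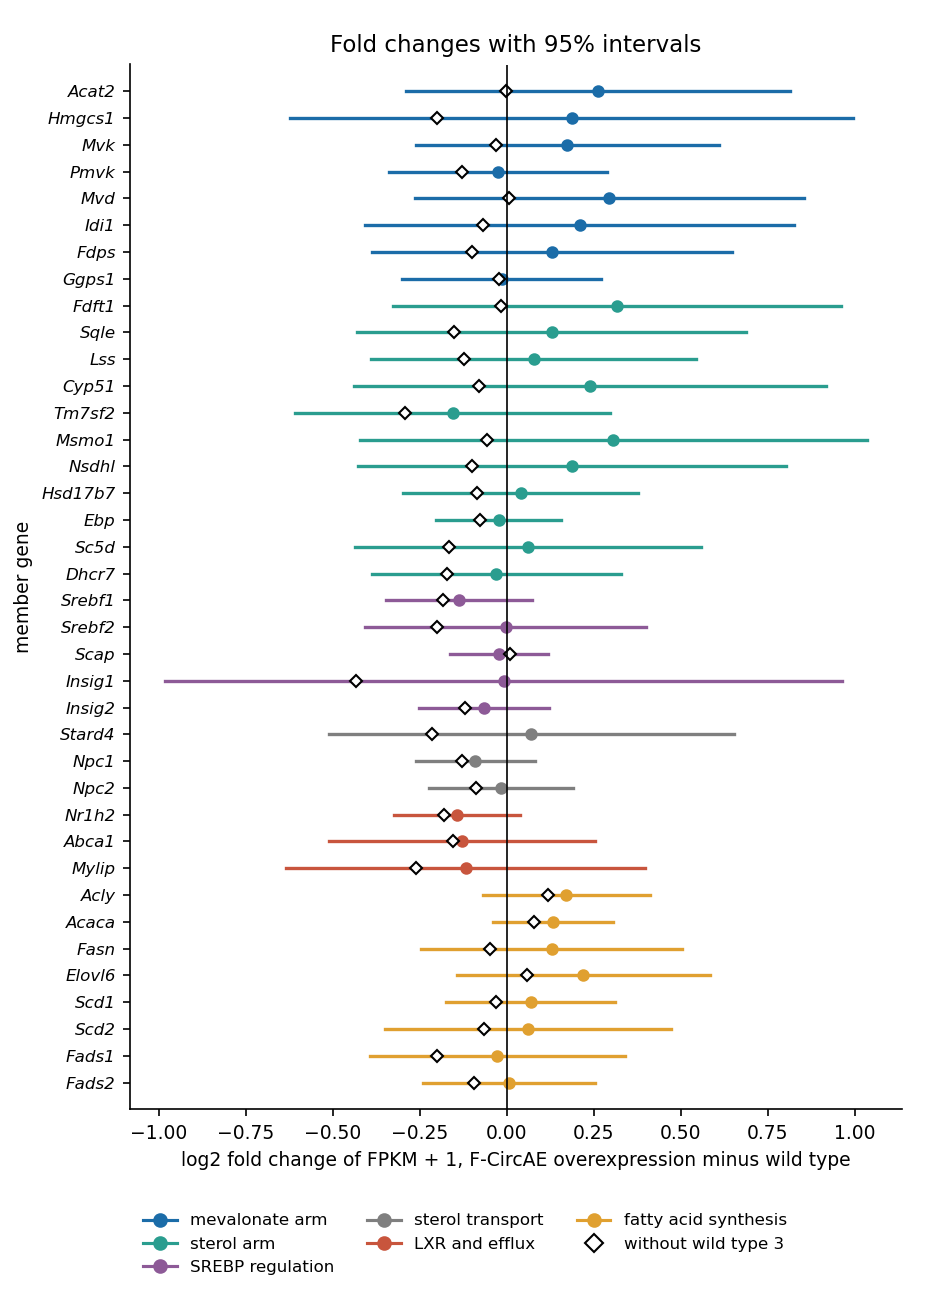
Log2 fold changes of FPKM + 1, F-CircAE overexpression minus wild type, for the 38 tested genes, with 95% intervals from limma, coloured by role. White diamonds give the estimate without wild type replicate 3. Every interval spans 0, and without that library 1 of the 19 estimates of the mevalonate and sterol arms is above 0.

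Among the regulators, Insig1 varied most. It encodes an endoplasmic reticulum protein that retains SCAP and is itself a known SREBP target (chromosome 5, 28071363 to 28078662). Insig1 had 56.8, 119.5 and 92.7 FPKM in F-CircAE replicates 1, 2 and 3 and 116, 116 and 47.4 FPKM in wild type replicates 1, 2 and 3. Both groups held a low library, F-CircAE replicate 1 at 0.535 times the mean of the other F-CircAE libraries and wild type replicate 3 at 0.409 times the mean of the other wild type libraries. The means were 89.6 ± 31.5 FPKM with F-CircAE and 93.2 ± 39.6 FPKM in wild type (SD, n = 3), with a log2 fold change of -0.0086 (standard error 0.41, 95% interval -0.98 to 0.96, limma adjusted p = 0.999). Its SD among wild type libraries on the log2 scale exceeded that of 99.2% of tested genes. Without wild type replicate 3 the estimate was -0.43 (limma adjusted p = 0.507), and without F-CircAE replicate 1 it was 0.28 (limma adjusted p = 0.976).

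Srebf2, which encodes the SREBP chiefly tied to cholesterol genes (chromosome 15, 82147181 to 82205379), had 53.5, 65.1 and 61.7 FPKM in F-CircAE libraries and 68.3, 69.5 and 45.5 FPKM in wild type libraries. The groups overlapped because wild type replicate 3 lay below all F-CircAE libraries and wild type replicates 1 and 2 above them. Its log2 fold change was -0.0024 (standard error 0.17, 95% interval -0.41 to 0.40, limma adjusted p = 0.999). Srebf1, whose SREBP products favour fatty acid genes (chromosome 11, 60199089 to 60222581), had 10.9, 13.5 and 12.8 FPKM in F-CircAE libraries and 14.1, 14.2 and 12.8 FPKM in wild type libraries. It had the smallest p and the largest estimate among the regulators, a log2 fold change of -0.14 (standard error 0.089, 95% interval -0.35 to 0.07, limma adjusted p = 0.843). It was -0.052 without F-CircAE replicate 1.

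Scap, the escort protein gene, had 9.10, 9.72 and 9.04 FPKM in F-CircAE libraries and 9.29, 9.15 and 9.90 FPKM in wild type libraries. It was the only tested gene of the set that was highest in wild type replicate 3, and its exons overlap 5830462I19Rik, which is read from the opposite strand. Insig2, the other INSIG gene, had 25.3, 23.5 and 27.1 FPKM with F-CircAE and 26.6, 28.4 and 24.4 FPKM in wild type. Its lowest library was F-CircAE replicate 2, the library in which Insig1 was highest. The estimates of all 5 regulators were below 0, with a median of -0.022. That count and that median rested on single libraries. Without F-CircAE replicate 1 the estimates of Srebf2 and Insig1 were above 0, and without wild type replicate 3 that of Scap was above 0 and the median was -0.182.

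Of 3 sterol transport genes, Stard4 followed the synthesis genes. It encodes a cytosolic sterol carrier and had 12.4, 16.9 and 14.5 FPKM in F-CircAE libraries and 17.1, 16.8 and 8.90 FPKM in wild type libraries. Npc2, a soluble cholesterol-binding protein of the lysosome, had 70.8, 80.7 and 78.0 FPKM with F-CircAE and 80.1, 82.5 and 69.7 FPKM in wild type. Npc1, the lysosomal membrane partner of Npc2 (chromosome 18, 12189692 to 12236400), had 3.31, 3.47 and 3.20 FPKM with F-CircAE and 3.805, 3.66 and 3.36 FPKM in wild type. Npc1 had the smallest p and the largest estimate of these 3, a log2 fold change of -0.089 (standard error 0.072, 95% interval -0.26 to 0.08, limma adjusted p = 0.850). The median of the 3 was -0.016, and it was 0.038 without F-CircAE replicate 1 and -0.129 without wild type replicate 3.

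The LXR and efflux genes showed another order, with F-CircAE replicate 1 the lowest library for all 3 that were tested, against 25.2% of all tested genes. Their estimates were all below 0, with a median of -0.128, and without F-CircAE replicate 1 the median was 0.071. Nr1h2, which encodes the widely expressed LXR-beta (chromosome 7, 44549616 to 44553951), had 20.1, 22.1 and 23.9 FPKM in F-CircAE libraries and 25.3, 24.9 and 23.2 FPKM in wild type libraries. Only F-CircAE replicate 3 and wild type replicate 3 crossed. Its log2 fold change was -0.14, with the smallest p of all 38 genes (standard error 0.076, 95% interval -0.32 to 0.04, limma unadjusted p = 0.103, adjusted p = 0.842). It was -0.082 without F-CircAE replicate 1. Nr1h3, which encodes LXR-alpha, was not tested, with 0.258, 0.370 and 0.192 FPKM in F-CircAE libraries and 0.272, 0.335 and 0.415 FPKM in wild type libraries. These rest on 11, 20 and 9 reads with F-CircAE and 14, 18 and 20 reads in wild type.

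Abca1, the exporter of cholesterol to lipid-poor apolipoproteins and a known LXR target (chromosome 4, 53030787 to 53159895), had 4.35, 7.04 and 7.12 FPKM in F-CircAE libraries and 6.84, 6.84 and 6.42 FPKM in wild type libraries. F-CircAE replicate 1 was low at 0.614 times the mean of the other F-CircAE libraries, while wild type replicate 3 was at 0.938 times the mean of the other wild type libraries. The log2 fold change was -0.13 (standard error 0.16, 95% interval -0.51 to 0.25, limma adjusted p = 0.884), and without F-CircAE replicate 1 it was 0.071 (limma adjusted p = 0.964). Mylip, the ligase that targets lipoprotein receptors for degradation, had 7.29, 12.0 and 12.8 FPKM with F-CircAE and 13.1, 12.3 and 9.16 FPKM in wild type. Abcg1, an exporter to lipoprotein particles, was close to absent. It had 0.0726, 0.0229 and 0.0132 FPKM in F-CircAE libraries and 0.0721, 0.0345 and 0.0899 FPKM in wild type libraries. The smallest whole counts that fit these values are 5, 2 and 1 reads with F-CircAE and 6, 3 and 7 reads in wild type. No difference was detectable at this depth.

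Synthesis was set against efflux in each library as the mean log2(FPKM + 1) of the 19 genes of both arms less that of Abca1, Abcg1 and Mylip. Abcg1, at 0.0899 FPKM or less, adds little but the pseudocount to the efflux mean. This difference was 1.81, 1.79 and 1.53 in F-CircAE replicates 1, 2 and 3 (1.71 ± 0.16, SD, n = 3) and 1.62, 1.71 and 1.15 in wild type replicates 1, 2 and 3 (1.49 ± 0.30, SD, n = 3). The groups overlapped. The difference between group means was 0.22, less than the wild type SD, and it was 0.049 without wild type replicate 3 and ran from 0.155 to 0.330 with the pseudocount. With Abca1 and Mylip alone as efflux genes, an alternative chosen after seeing the data, the difference between group means was 0.248, or 0.110 without wild type replicate 3. The efflux mean was lowest in F-CircAE replicate 1, and the synthesis mean in wild type replicate 3. In F-CircAE replicate 1 the efflux mean was 1.86, against 2.25 and 2.28 in F-CircAE replicates 2 and 3, while its synthesis mean was 3.67 against 4.03 and 3.81. In wild type replicate 3 the synthesis mean was 3.27, against 3.91 and 3.96 in wild type replicates 1 and 2, while its efflux mean was 2.12 against 2.297 and 2.25.

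**Figure D4:**
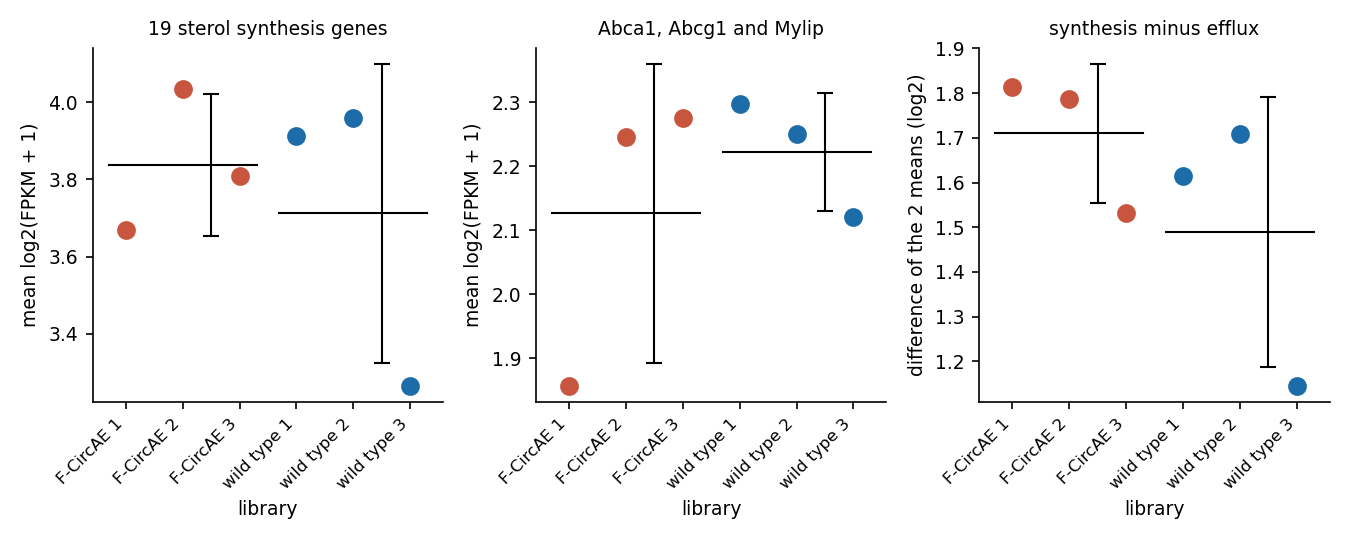
Mean log2(FPKM + 1) per library of the 19 genes of the mevalonate and sterol arms (left), of Abca1, Abcg1 and Mylip (middle), and their difference (right). Points are libraries, red for F-CircAE and blue for wild type, with the group mean as a line and bars of 1 SD (n = 3), and the vertical axes do not start at 0. F-CircAE replicate 1 is lowest in the middle at 1.86, and wild type replicate 3 is lowest on the left at 3.27.

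Fatty acid genes had a median ratio of highest to lowest library of 1.23 with F-CircAE and 1.28 in wild type, smaller than that of the 19 sterol genes, and 7 of 8 were highest in F-CircAE replicate 2 and 7 of 8 lowest in wild type replicate 3. Acly, which splits citrate into cytosolic acetyl-CoA, had 52.5, 66.7 and 55.8 FPKM in F-CircAE libraries and 53.7, 52.9 and 47.7 FPKM in wild type libraries. Acaca, acetyl-CoA carboxylase (chromosome 11, 84129672 to 84401651), had 9.49, 9.64 and 8.67 FPKM in F-CircAE libraries and 8.77, 8.66 and 7.66 FPKM in wild type libraries. Only F-CircAE replicate 3 lay within the wild type range. Its log2 fold change was 0.13, with the smallest p of these 8 genes (standard error 0.073, 95% interval -0.04 to 0.31, limma adjusted p = 0.842). It was 0.079 without wild type replicate 3 and 0.075 after rescaling to the same FPKM sum. An annotated pseudogene, Gm5182, matches Acaca over a stretch of 6118 bases and can share its reads.

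Fasn, fatty acid synthase, had 30.6, 32.4 and 26.1 FPKM in F-CircAE libraries and 30.8, 30.4 and 20.8 FPKM in wild type libraries. Elovl6, which extends palmitate (chromosome 3, 129532355 to 129638495), had 17.5, 18.4 and 14.5 FPKM with F-CircAE and 15.4, 16.7 and 11.2 FPKM in wild type. It had the largest estimate of these 8 genes, a log2 fold change of 0.22 (standard error 0.15, 95% interval -0.14 to 0.58, limma adjusted p = 0.843). Without wild type replicate 3 it was 0.058. For both genes F-CircAE replicate 3 and wild type replicate 3 were the lowest of their groups. F-CircAE replicate 1 was not low, at 1.05 and 1.06 times the mean of the other F-CircAE libraries. An annotated pseudogene, Gm11295, matches Elovl6 over 805 bases and can share its reads.

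The stearoyl-CoA desaturases Scd1 and Scd2 lie near each other on chromosome 19 (44394455 to 44407879 and 44293674 to 44306864) and share long near-identical stretches with family members, so reads may be split between them. Scd2 had the highest level of the whole set, with 169.7, 257 and 227 FPKM in F-CircAE libraries and 224, 226 and 173 FPKM in wild type libraries. Scd1 had 54.8, 63.1 and 60.9 FPKM in F-CircAE libraries and 61.0, 60.6 and 49.2 FPKM in wild type libraries. The log2 fold change of Scd2 was 0.061 (standard error 0.17, limma adjusted p = 0.949), and that of Scd1 was 0.069 (standard error 0.10, limma adjusted p = 0.897). Without wild type replicate 3 both were below 0, at -0.066 for Scd2 and -0.031 for Scd1. The lowest library of Scd2 was F-CircAE replicate 1, and that of Scd1 was wild type replicate 3.

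Fads1, the desaturase that makes arachidonate, had 62.3, 75.8 and 71.4 FPKM in F-CircAE libraries and 81.4, 78.8 and 55.5 FPKM in wild type libraries. Fads2, the desaturase of the entry step to polyunsaturated fatty acids, had 63.2, 70.2 and 60.4 FPKM with F-CircAE and 68.5, 69.1 and 55.7 FPKM in wild type. Wild type replicates 1 and 2 lay above all F-CircAE libraries for Fads1, and wild type replicate 3 lay below them for both genes. Over the 8 fatty acid genes the median log2 fold change was 0.099 with 7 above 0, and without wild type replicate 3 the median was -0.040. The median was 0.036 after rescaling to the same FPKM sum and 0.047 after quantile normalization. Wild type replicate 3 was under 0.75 times the mean of wild type replicates 1 and 2 in 3 of the 8, namely Fasn, Elovl6 and Fads1.

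Lipid genes outside the set were read from a list of 40, of which 38 were in the files and 35 were tested. None passed an adjusted p below 0.05, and none had an unadjusted p below 0.05 (limma), against 5.17% of all tested genes. Their median log2 fold change was 0.029, with 24 of 35 above 0. The smallest p belonged to Elovl1, an elongase of long saturated fatty acids, with 24.04, 22.3 and 22.0 FPKM in F-CircAE libraries and 19.95, 20.4 and 21.3 FPKM in wild type libraries (log2 fold change 0.14, limma adjusted p = 0.842). Next was Me1, malic enzyme, a source of NADPH, with 21.2, 18.7 and 18.9 FPKM in F-CircAE libraries and 17.2, 16.1 and 18.5 FPKM in wild type libraries (log2 fold change 0.17, limma adjusted p = 0.842). The groups did not overlap, with F-CircAE higher, in 4 of the 35, against 6.81% of all tested genes. Besides Elovl1 and Me1 they were Osbp, an oxysterol-binding protein gene, and Acat1, the mitochondrial thiolase gene, which were named after their values were seen. F-CircAE was lower without overlap in 0 of the 35, against 4.69% of all tested genes.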

How the data were processed

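DNase-digested total RNA went through NEBNext Ultra preparation and paired-end sequencing, per the labels' protocols. The deposited files hold FPKM per Ensembl gene ID, per the file headers. Reads were mapped to mm10, per the submitters' processing notes; the aligner, counting program, annotation and use of strand were not given in the sources used here. Where strand was not used, the 10 genes of the set whose exons overlap a gene on the other strand have uncertain reads. Overlap on the same strand, 1124 bases in Fdps and 532 in Tm7sf2, can make reads uncertain whether or not strand was used. Srebf1, Scd2 and Nr1h3 had shorter overlaps of this kind, of 66, 61 and 34 bases. Symbols and coordinates came from GENCODE M21 (mm10). Copies were searched with BLAST 2.17.0 at 90% identity over at least 300 bases, and 10 genes of the set had one. These were Acat2, Idi1, Fdps, Ggps1, Fdft1, Sc5d, Acaca, Elovl6, Scd1 and Scd2, and their reads can be shared.

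Groups came from the genotype label and replicate numbers from the title. Genes above 1 FPKM in at least 3 libraries (12222) entered a limma 3.58.1 fit (R 4.3.3) of log2(FPKM + 1) on group alone, moderated with the trend and robust options, with Benjamini-Hochberg adjustment. Fold changes on that scale understate changes of low genes. Reads were recovered from the steps of the FPKM values, using the annotated exon length where it gave whole reads within 0.01 in all 6 libraries (79.5% of genes). For the rest, the shortest length giving whole reads was searched, which is no independent check and gives the smallest counts that fit. Recovered reads per library ranged from 16968281 to 21842328 and cover counting error only. The genes and lists were chosen with earlier results of these data known. Fold change, error and p are given for the gene with the smallest p and the largest estimate of each role, and for Srebf1, Srebf2, Insig1, Nr1h2, Abca1, Scd1 and Scd2. In all, 17 alternatives were tried, and 1 more was added after seeing the data. Promoter motifs beyond TCACNCCAC, and the windows printed, were chosen after its matches were counted.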

Additional observations from a re-analysis of the deposited data

How the results depend on the processing

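The count of 0 genes called over all tested genes became 2241 of 12222 (18.3%) with array weights, which also called 3 of the 38 tested genes of the set. These were Acly (log2 fold change 0.28, limma adjusted p = 0.030), Insig2 (-0.19, limma adjusted p = 0.045) and Nr1h2 (-0.16, limma adjusted p = 0.036). The weights ran from 0.28 for replicate 1 to 4.64 for replicate 2 with F-CircAE, and from 0.24 for replicate 3 to 2.57 for replicate 2 in wild type. Wild type replicate 1 had 2.16, so the fit leaned on the pair with a chi-square of 1.46 per gene. If that pair shares a culture or an RNA, these weights do not show that wild type replicate 3 is noisy, and the calls have too small an error. Leaving out 1 library at a time gave between 0 and 2 calls over all genes and 0 in the set. In the other settings no gene was called. Same-numbered libraries did not deviate together (correlations of -0.1, 0.08 and 0 for replicates 1, 2 and 3), so the numbers are not taken as pairs. With the replicate block the count stayed 0, with 444 genes at an unadjusted p below 0.05 against 632 without it.

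Leaving out 1 library moved the sterol synthesis median between -0.086 and 0.272, the fatty acid median between -0.040 and 0.144, the LXR and efflux median between -0.231 and 0.071, the regulator median between -0.182 and -0.009, the transport median between -0.129 and 0.038, and synthesis minus efflux between 0.049 and 0.330. With pseudocounts of 0.1 and 5 the last was 0.330 and 0.155, and without Abcg1, chosen after seeing the data, 0.248. It was not run under quantile normalization, array weights or limma-voom, and filters and the block do not alter it. Averaging wild type replicates 1 and 2 gave a sterol median of 0.270 with 17 of 19 above 0. Scalings moved the median of all genes to between -0.047 and 0.007, from 0.008. The fatty acid median, 0.099 as deposited, was 0.036 after rescaling to the same FPKM sum and 0.047 after quantile normalization, where Scd1 was at 0.006 and 0.005.

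Signs of small estimates turned, and leaving out 1 library moved Fdft1 between -0.016 and 0.50, Srebf2 between -0.20 and 0.10, Insig1 between -0.43 and 0.28, Abca1 between -0.23 and 0.071, Scd1 between -0.031 and 0.13 and Scd2 between -0.068 and 0.23. Without a change of sign, Mvd moved between 0.007 and 0.44, Elovl6 between 0.058 and 0.33, Acaca between 0.079 and 0.18, Srebf1 between -0.20 and -0.052, Nr1h2 between -0.20 and -0.082 and Npc1 between -0.13 and -0.059. Srebf2 was at 0.078 without F-CircAE replicate 1, 0.090 and 0.10 without wild type replicates 1 and 2, and 0.096 with those averaged. Insig1 was at 0.28, 0.21, 0.20 and 0.20 in the same settings and 0.010 with array weights. Abca1 was at 0.071 without F-CircAE replicate 1 and 0.012 with array weights. Scd2 was at -0.068 without F-CircAE replicate 2, -0.066 without wild type replicate 3, -0.0040 after rescaling to the same FPKM sum and -0.018 after quantile normalization. Fdft1 and Scd1 were at their lower ends without wild type replicate 3. The cause was not tested. Depth limits Fdps, Nr1h3 and Abcg1 most.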

Other observations

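In wild type replicate 3, 4 of the 35 tested lipid genes outside the set (11.4%) were under 0.75 times the mean of wild type replicates 1 and 2. That share was close to the 8.13% of all tested genes, and the 4 were picked out after their values were seen. As a whole the 35 were not low in that library, with a median ratio of 0.996 to the mean of wild type replicates 1 and 2. Lpin1, a phosphatidate phosphatase gene, stood at 0.533 times that mean, Aacs, which activates acetoacetate for lipid synthesis, at 0.547, Acss2, which makes acetyl-CoA from acetate, at 0.651 and Scarb1, a lipoprotein receptor gene, at 0.723. None passed the test between F-CircAE and wild type (limma adjusted p from 0.910 to 0.987). Dgat2, which completes triglyceride synthesis, went the other way in that library, at 1.57 times the mean of the other wild type libraries.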
